A study of Mus musculus with 3 samples.

Results

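The BCL2 family decides whether the outer membrane of the mitochondrion is opened, the step that commits a cell to the intrinsic route of apoptosis. Guardians such as BCL2, BCL-xL (gene Bcl2l1) and MCL1 hold the effectors BAX and BAK (gene Bak1) in check, and the effectors form the pores that release cytochrome c. The BH3-only proteins carry stress signals to both classes: BID, BIM (gene Bcl2l11), PUMA (gene Bbc3), NOXA (gene Pmaip1) and BAD. In muscle, apoptosis removes some myoblasts during differentiation, and several BH3-only genes are known targets of p53 and of stress factors such as CHOP and ATF4.

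The members were the rows of the gene read-count table with these 10 symbols, of 20162 genes in all. All 10 passed the filter on low counts, which left 14478 genes. The 3 cell populations were of C2C12, an established mouse myoblast line that forms myotubes in low serum, and their polyadenylated RNA had been sequenced. Every population, the control included, carried a lentiviral shRNA vector, stayed under puromycin and had been kept for 7 days in 2% horse serum. The library labelled ShSC expressed a control shRNA, and the libraries labelled ShA and ShB each expressed a different shRNA against Tead4, a transcription factor that binds DNA through its TEA domain. These shRNAs are called hairpin A and hairpin B here. Each was an infected population, sequenced once, and the labels describe no repeat culture of any shRNA. The comparison asks which members differed when Tead4 was silenced.

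The libraries held 15594305 to 19918954 counted reads. Tead4 had 1256 reads in the control library, 397 with hairpin A and 170 with hairpin B, which after scaling was 25.2% and 13.8% of the control level. Over both hairpins Tead4 fell by 2.35 on the log2 scale (SE 0.27; adjusted p = 2.82e-06, edgeR quasi-likelihood). Muscle markers were present in all 3 libraries. Of 10 myotube markers 6 fell, 0 rose, and their summed level was 20446 CPM (the depth-scaled count) in the control library against 12146 with hairpin A and 14430 with hairpin B. All 6 tested markers of proliferating cells rose, from a summed 36.4 CPM to 155 and 154 CPM. Of 6 reserve or satellite cell markers 2 rose and 1 fell, with sums of 300, 340 and 367 CPM in the control, hairpin A and hairpin B libraries. Of 3 tested smooth muscle markers 2 rose (sums of 1605, 3905 and 3048 CPM), and of 3 fibroblast markers none was called (140, 134 and 75.6 CPM). Macrophage and endothelial markers summed to at most 3.36 CPM in every library, and the endothelial markers Pecam1 and Cdh5 were at 0 reads in the control library. The part these shifts have in the values below was not tested. In such bulk RNA, fewer cells of a type and less RNA per cell cannot be told apart.

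Promoters are shown for 3 members: Bbc3, whose level moved most, and Bcl2l1 and Mcl1, the members with a match to a TEAD motif. The 250 bases before a start site are printed 5′ to 3′, from RefSeq on GRCm38.p6, a later build than the mm9 of the submitters' processing notes. Capitals mark the motif GGAATG, or its reverse complement CATTCC.
Bbc3, chr7:16309333-16309582, plus strand: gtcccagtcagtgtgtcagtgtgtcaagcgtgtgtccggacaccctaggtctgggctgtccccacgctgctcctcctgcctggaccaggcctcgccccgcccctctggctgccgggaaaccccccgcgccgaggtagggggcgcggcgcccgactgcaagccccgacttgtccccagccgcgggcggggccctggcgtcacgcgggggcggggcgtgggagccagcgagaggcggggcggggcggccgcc
Bcl2l1, chr2:152831729-152831978, minus strand: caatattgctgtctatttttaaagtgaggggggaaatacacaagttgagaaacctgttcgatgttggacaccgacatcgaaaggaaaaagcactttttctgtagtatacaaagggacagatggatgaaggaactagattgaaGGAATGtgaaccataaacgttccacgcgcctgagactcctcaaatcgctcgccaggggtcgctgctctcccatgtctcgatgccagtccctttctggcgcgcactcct
Mcl1, chr3:95658471-95658720, plus strand: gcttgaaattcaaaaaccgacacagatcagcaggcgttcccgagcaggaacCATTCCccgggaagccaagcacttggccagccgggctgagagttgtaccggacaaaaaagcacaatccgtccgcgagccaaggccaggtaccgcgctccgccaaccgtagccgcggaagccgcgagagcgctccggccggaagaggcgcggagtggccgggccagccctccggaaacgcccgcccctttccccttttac
Of the 10 members 9 matched the promoter table, with 15 entries of 300 bases (250 before a start site and 50 after it). Pmaip1 did not match. The motif GGAATG, searched on both strands, was in 2 of the 15 entries, 1 of the 3 of Bcl2l1 (first base 108 bases before the start site) and that of Mcl1 (199 bases before it). Over all 32851 promoters of that length 14.7% held it. The C/EBP-ATF motif TGATGNAA, also searched on both strands, was in 0 of the 15 entries and in 3.97% of all promoters. The 3 entries of Bbc3 held 74.7% to 78.0% G and C, against a median of 52.7% over all promoters. A match is a run of letters and was not tested as a binding site.

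2 of the BH3-only genes, Bbc3 and Pmaip1, fell with Tead4 shRNA, and no guardian or effector passed the test. Across the 10 members 2 were called lower and 0 higher, where 4.48% of all 14478 tested genes were called lower and 5.34% higher (9.82% in either direction). The members' median log2 fold change was -0.24 and 8 of the 10 lay below 0. Over all tested genes the median was 0.02 and 48.2% lay below 0. The test (edgeR quasi-likelihood, Benjamini-Hochberg adjustment over all tested genes, threshold 0.05) has 1 residual degree of freedom, taken from libraries with different shRNAs, and treats the single control library as no more variable than they are. To it the test adds a prior with a median of 20.9 degrees of freedom, estimated over all tested genes. Most of the spread behind each p-value is thus borrowed from other genes. When the dispersion was taken from all 3 libraries together, ignoring the groups, a likelihood-ratio test called 0 genes higher and 0 lower, so that Bbc3, Pmaip1 and Tead4 were not called either (540 genes had an unadjusted p below 0.05).

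**Figure D1:**
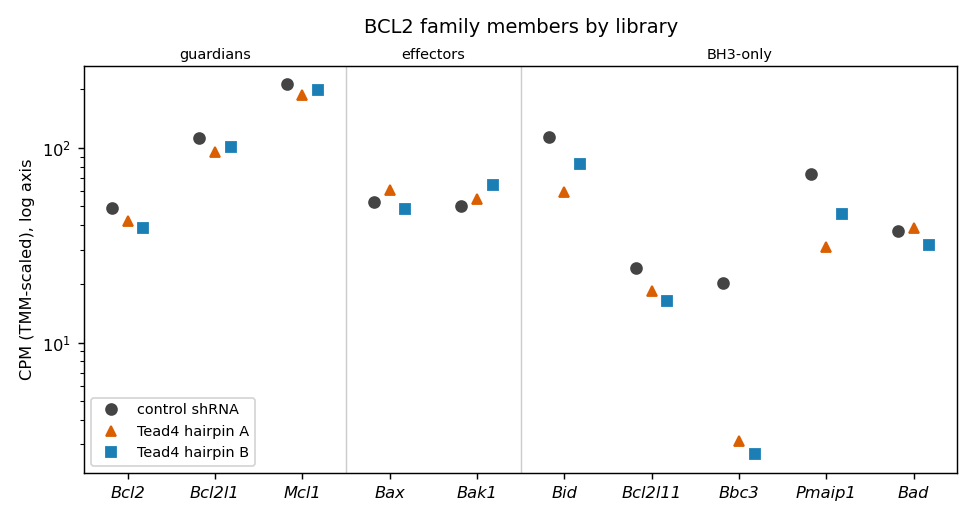
Level of each member in the 3 libraries, in CPM after TMM scaling on a log axis, with 1 point per library and members ordered by role. Bbc3 sits at 20.3 in the control library and at 3.13 and 2.67 with hairpins A and B, the widest gap among the members.

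Bbc3 codes for PUMA, which binds every guardian. Its reads numbered 326 in the control library, 63 with hairpin A and 42 with hairpin B, or 20.3, 3.13 and 2.67 CPM. The control library was high, and both Tead4 shRNA libraries lay at a similar low level, 15.4% and 13.1% of it. Against the control, the log2 ratio was -2.70 with hairpin A (95% exact counting interval -3.11 to -2.30) and -2.93 with hairpin B (-3.43 to -2.46). Over both, Bbc3 fell by 2.80 on the log2 scale (SE 0.32; adjusted p = 2.82e-06, edgeR quasi-likelihood). Only 0.518% of tested genes had a lower log2 fold change than Bbc3. The log2 ratio of hairpin B to hairpin A was -0.23, with an interval of -0.83 to 0.35 that includes no difference.

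Pmaip1 codes for NOXA, a BH3-only protein that binds chiefly MCL1. It had 1184, 620 and 722 reads in the control, hairpin A and hairpin B libraries, or 73.7, 30.8 and 45.8 CPM. Both Tead4 shRNA libraries lay below the control, hairpin A further than hairpin B. Its log2 ratio was -1.26 with hairpin A (-1.40 to -1.12) and -0.69 with hairpin B (-0.82 to -0.55). Over both, Pmaip1 fell by 0.95 on the log2 scale (SE 0.24, edgeR quasi-likelihood adjusted p = 0.0118), a call that DESeq2 did not make (adjusted p = 0.0541; range over the 8 alternatives 0.00105 to 0.885). The log2 ratio of hairpin B to hairpin A was 0.57 (0.42 to 0.73) for Pmaip1 and -0.87 (-1.14 to -0.61) for Tead4. Each sets 1 library against another, and a link between them was not tested. Reads of Bbc3 per read of Pmaip1, a ratio that does not depend on scaling, were 0.275 in the control library (95% exact interval 0.243 to 0.312), 0.102 with hairpin A (0.0771 to 0.132) and 0.0582 with hairpin B (0.0416 to 0.0794). The reads of Bbc3 were thus fewer relative to those of Pmaip1 in both Tead4 shRNA libraries, with intervals apart from the control's.

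Bid codes for the BH3-only protein that caspase 8 cleaves, which links death receptors to mitochondria. Its reads numbered 1826 in the control library, 1194 with hairpin A and 1307 with hairpin B, or 114, 59.4 and 82.9 CPM. As with Pmaip1, both Tead4 shRNA libraries were below the control and hairpin A was the lower. The log2 fold change of Bid was -0.68 (SE 0.23) and missed the threshold (edgeR quasi-likelihood adjusted p = 0.0673). Without the filter on low counts Bid passed (adjusted p = 0.0342; range over the alternatives 0.0342 to 0.885). Its log2 ratio was -0.94 with hairpin A (-1.04 to -0.83) and -0.46 with hairpin B (-0.56 to -0.35).

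Bcl2l11 codes for BIM, an activator of BAX and BAK. It had 390, 370 and 259 reads, or 24.3 CPM in the control library, 18.4 with hairpin A and 16.4 with hairpin B. Both Tead4 shRNA values were below the control, by ratios of -0.40 (-0.61 to -0.19) and -0.56 (-0.80 to -0.33) on the log2 scale. The log2 fold change of Bcl2l11 was -0.48 (SE 0.24) and was not called (edgeR quasi-likelihood adjusted p = 0.261). Bad, whose protein is held inactive by phosphorylation and binds BCL2 and BCL-xL, had 604, 776 and 499 reads, or 37.6, 38.6 and 31.7 CPM. The hairpin A library was level with the control for Bad, and the hairpin B library was lower, with log2 ratios of 0.04 (-0.12 to 0.19) and -0.25 (-0.42 to -0.07). Over both, Bad stood at -0.10 (SE 0.24), with an edgeR quasi-likelihood adjusted p of 0.874.

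**Figure D2:**
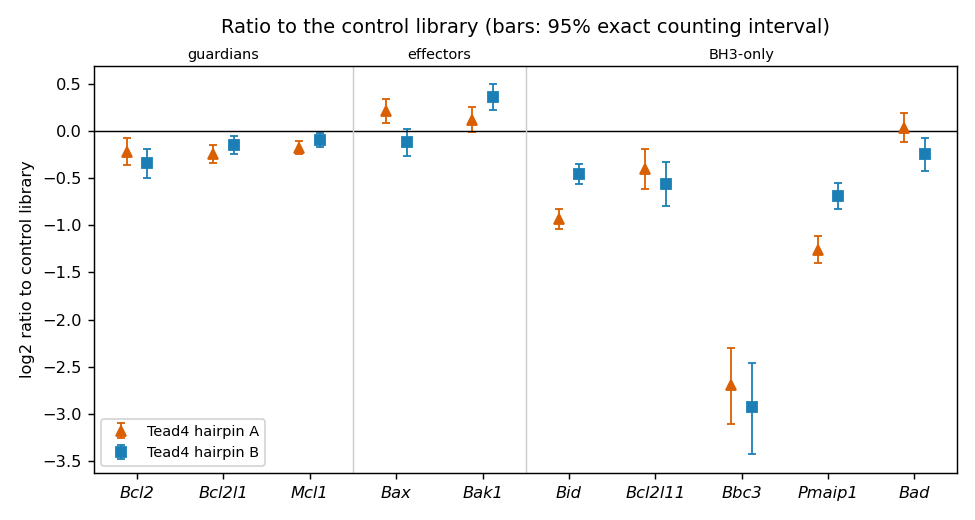
Log2 ratio of each Tead4 shRNA library to the control library for the 10 members, with bars for the 95% exact counting interval. Bbc3 lies near -2.70 and -2.93, Pmaip1 and Bid lie lower with hairpin A than with hairpin B, and the guardians lie under 0.

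The guardians were close to the control level in both libraries. Mcl1, a short-lived guardian, had 3411 reads in the control library, 3776 with hairpin A and 3134 with hairpin B, or 212, 188 and 199 CPM. Bcl2l1, whose main product is BCL-xL, had 1806, 1912 and 1596 reads, or 112, 95.0 and 101 CPM. Bcl2, the founding member, had 789, 848 and 611 reads, or 49.1, 42.2 and 38.8 CPM. For each of the 3 guardians the control library was the highest after scaling. Relative to the control, Mcl1 was at 88.4% with hairpin A and 93.6% with hairpin B, Bcl2l1 at 84.5% and 90.0%, and Bcl2 at 85.8% and 78.9%. Their log2 fold changes were -0.14 (SE 0.23) for Mcl1, -0.20 (SE 0.22) for Bcl2l1 and -0.28 (SE 0.22) for Bcl2, with edgeR quasi-likelihood adjusted p of 0.808, 0.690 and 0.535. Counts per gene do not separate splice forms, so the long and short products of Bcl2l1 and Mcl1 were not distinguished.

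Neither effector passed the test, and for Bax the 2 hairpins lay on opposite sides of the control. Bax had 844 reads in the control library, 1222 with hairpin A and 763 with hairpin B, or 52.6, 60.7 and 48.4 CPM. The hairpin A library was above the control for Bax and the hairpin B library slightly below it, with log2 ratios of 0.21 (0.08 to 0.34) and -0.12 (-0.26 to 0.02). Over both, Bax had a log2 fold change of 0.06 (SE 0.23, edgeR quasi-likelihood adjusted p = 0.931). Bak1 had 806, 1096 and 1016 reads, or 50.2, 54.5 and 64.5 CPM. Both Tead4 shRNA libraries were above the control for Bak1, with log2 ratios of 0.12 (-0.01 to 0.25) with hairpin A and 0.36 (0.23 to 0.50) with hairpin B. Over both, Bak1 stood at 0.24 (SE 0.23; adjusted p = 0.605, edgeR quasi-likelihood).

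Read library by library, 7 of the 10 members had both ratios below the control with intervals that exclude no change: the 3 guardians, Bid, Bcl2l11, Bbc3 and Pmaip1. Of all tested genes 21.4% met this rule, and 25.5% of the 10250 genes with at least as many reads as the least counted member. No member had both ratios higher, where 21.7% of tested genes did. With upper-quartile scaling or total counts Mcl1 no longer met the rule, and Bak1 met it in the higher direction. Both ratios share the control library, so a deviation of that library alone would move them together. With both ratios also required to be at least 1.5-fold, Bbc3 and Pmaip1 remained, where 7.03% of tested genes met that rule in the lower direction and 8.99% in the higher. These intervals cover counting error only, since each ratio sets 1 library against 1 and variation between cultures does not enter. Reads amplified by PCR are not independent molecules, so even the counting error may be understated.

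**Figure D3:**
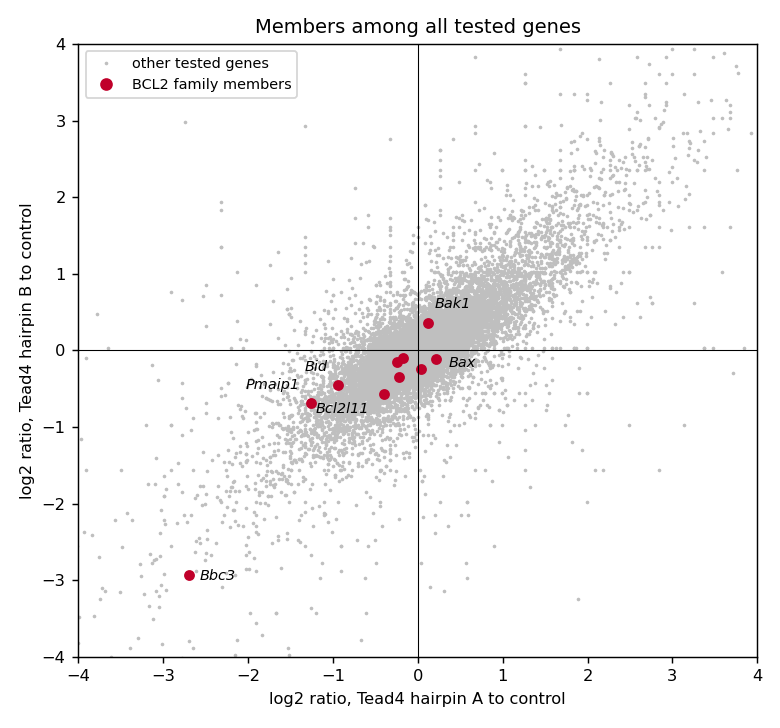
Log2 ratio with hairpin A (horizontal) against hairpin B (vertical) for the tested genes with reads in all 3 libraries, within 4 of zero, in grey, and the 10 members in red, 6 of them named. Bbc3 stands apart at the lower left, Pmaip1 lies toward the lower left of the main cloud, and Bid and the other members lie within it. Both axes share the control library.

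The hairpins differed from each other beyond counting error for 6 of the 10 members, against 50.6% of all tested genes (25.4% higher with hairpin A and 25.3% with hairpin B). Bax and Bad were higher with hairpin A, by log2 ratios of B to A of -0.33 (-0.46 to -0.20) and -0.28 (-0.45 to -0.12). Mcl1, Bak1, Bid and Pmaip1 were higher with hairpin B, by 0.08 (0.01 to 0.15), 0.24 (0.12 to 0.37), 0.48 (0.37 to 0.60) and 0.57 (0.42 to 0.73). Each of these sets 1 library against another and has no replicate check.

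The ratio of Bax reads to guardian reads within a library is free of the scaling between libraries. It was not computed for the other effector, Bak1, whose level was highest with hairpin B (50.2, 54.5 and 64.5 CPM in the control, hairpin A and hairpin B libraries). It is compared between libraries only, since transcripts differ in length. There were 1.07 reads of Bax per read of Bcl2 in the control library (95% exact interval 0.970 to 1.18), 1.44 with hairpin A (1.32 to 1.57) and 1.25 with hairpin B (1.12 to 1.39). The hairpin A interval lay above the control's, and the hairpin B interval overlapped it. Reads of Bax per read of Bcl2l1 were 0.467 (0.430 to 0.507), 0.639 (0.594 to 0.687) and 0.478 (0.438 to 0.521) in the control, hairpin A and hairpin B libraries. Per read of Mcl1 they were 0.247 (0.229 to 0.267), 0.324 (0.303 to 0.345) and 0.243 (0.225 to 0.264). The hairpin A library was thus high in all 3 ratios of Bax, and the hairpin B library was within the control's interval for Bcl2l1 and Mcl1. These ratios do not describe Bak1.

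**Figure D4:**
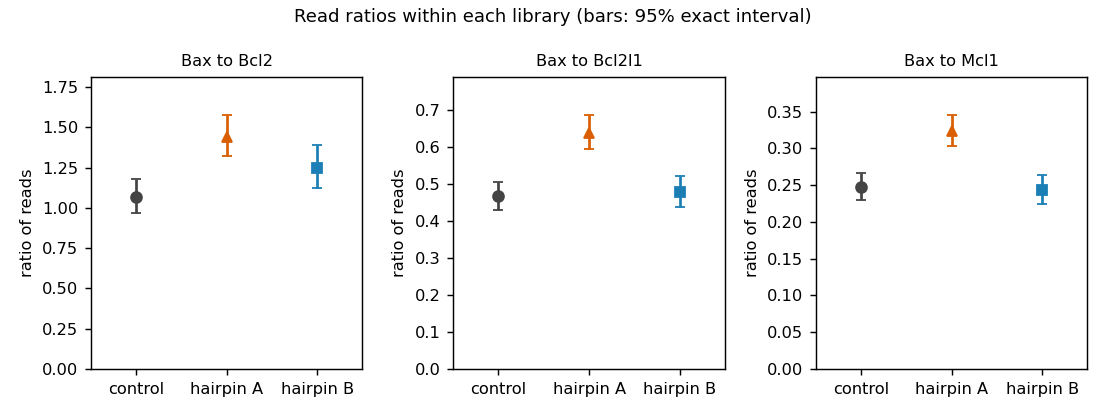
Reads of Bax per read of Bcl2, Bcl2l1 and Mcl1 in each library, with 95% exact intervals and axes from 0. The hairpin A library is highest in each panel (1.44, 0.639 and 0.324), and the hairpin B library overlaps the control library.

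Per kilobase of exon, Mcl1 and Bax had the highest levels of the 10 members in the control library, at 62.2 and 60.6 RPKM (scaled reads divided by exon length), with exact Poisson intervals that overlapped (60.1 to 64.3 and 56.6 to 64.9). Bid followed at 52.0 RPKM, then Bcl2l1 at 28.9 and Pmaip1 at 27.0, whose intervals overlapped (27.6 to 30.3 and 25.5 to 28.6). Next came Bak1, then Bad at 15.7 RPKM, Bbc3 11.2, Bcl2 5.37 and Bcl2l11 3.52, with no overlap between neighbours. With Tead4 shRNA Bbc3 moved from place 8 to place 10 in this order, at 1.73 RPKM with hairpin A and 1.47 with hairpin B, the lowest of the 10 members in both libraries. Pmaip1 moved from place 5 to places 7 and 6, at 11.3 and 16.8 RPKM. Exon lengths came from GENCODE M21 protein-coding transcripts of a later build, and whether the whole length, 9157 bases for Bcl2, is transcribed in these cells was not tested.

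Some members share exon sequence with a gene on the other strand, and the library kit described in the labels does not mark strand. Bid overlaps Bcl2l13, itself a family gene, which had 2261, 2027 and 2030 reads in the control, hairpin A and hairpin B libraries and a log2 fold change of -0.30 (SE 0.23). Its log2 ratio to the control was -0.48 (-0.57 to -0.40) with hairpin A and -0.13 (-0.22 to -0.04) with hairpin B. Bad overlaps Gpr137, which had 505, 590 and 406 reads. Bak1 overlaps Ggnbp1, which had 32 reads in the control library and was at 0 in the others. How the reads of such pairs were divided was not given in the sources used here, so the values of Bid, Bad and Bak1 are uncertain to that extent. Bcl2 overlaps a transcript that had 0 reads in every library, and Bbc3 and Pmaip1 had no such neighbour in the table.

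Among the other BCL2 relatives, 1 effector-like gene rose and 1 gene of mitochondrial clearance fell. Of 16 listed, 10 were in the table and 8 were tested. Bok, a relative of BAX and BAK, had 560 reads in the control library, 1783 with hairpin A and 1224 with hairpin B, or 34.9, 88.6 and 77.7 CPM. Both Tead4 shRNA libraries were above the control, and Bok rose by 1.25 on the log2 scale (SE 0.23, edgeR quasi-likelihood adjusted p = 0.00106). Bnip3, a mitochondrial protein of mitophagy, went from 1099 reads to 693 and 729, or 68.4 CPM to 34.4 and 46.3, and fell by 0.76 (SE 0.23, edgeR quasi-likelihood adjusted p = 0.0355). The call of Bnip3 ended under RLE scaling (adjusted p = 0.0536), upper-quartile scaling (0.0619) and DESeq2 (0.140), in a range of 0.0149 to 0.885 over the alternatives. The median log2 fold change of the 8 was -0.37, against 0.02 over all tested genes. By the library ratios, 1 of the 8 had both higher beyond counting error and 3 had both lower, against 21.7% and 21.4% of all tested genes. In the edgeR test 5.34% of all tested genes were called higher and 4.48% lower.

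Downstream of the mitochondrion, 1 of 18 tested execution genes was called, with a median log2 fold change of 0.05 over the 18. Of all tested genes 9.82% were called in either direction. By the library ratios, 6 of the 18 had both higher beyond counting error and 3 had both lower. Over all tested genes these shares were 21.7% and 21.4%. The called gene was Birc5 (survivin), an inhibitor of apoptosis that also acts in mitosis and is among the proliferation markers above. Birc5 went from 34 reads to 210 and 194 and rose by 2.42 (SE 0.39, edgeR quasi-likelihood adjusted p = 2.56e-04). Apaf1, the scaffold of the apoptosome, cytochrome c (Cycs) and caspase 9 were not called. Their log2 fold changes were 0.01 (SE 0.28) for Apaf1, 0.01 (SE 0.26) for Cycs and 0.57 (SE 0.25) for Casp9. With hairpins A and B the log2 ratios were 0.21 (-0.03 to 0.45) and -0.23 (-0.50 to 0.04) for Apaf1. Those of Cycs were -0.20 (-0.44 to 0.04) and 0.20 (-0.03 to 0.44). Casp9 was higher with both, at 0.63 (0.44 to 0.83) and 0.51 (0.30 to 0.72). Apaf1, Cycs and Casp9 were named after their values were seen. The 3 execution genes with both ratios lower were Htra2 (-0.55 with hairpin A and -0.42 with hairpin B), Vdac3 (-0.74 and -0.22) and Vdac1 (-0.25 and -0.06). In the death receptor route 0 of 10 genes were called, against the same 9.82% of all tested genes, and the median was 0.15. Of the 10, 2 had both ratios higher (Ripk1 and Casp8) and 1 both lower (Tnfrsf10b). Its genes of highest CPM were the receptor Tnfrsf12a (0.19, SE 0.24) and Cflar, the caspase 8 inhibitor (-0.01, SE 0.22). For Tnfrsf12a the log2 ratio was -0.01 (-0.09 to 0.07) with hairpin A and 0.37 (0.29 to 0.45) with hairpin B.

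Of 12 tested transcription factors known to act on members, 0 rose and 3 fell, and the median over the 12 was 0.07. In the same edgeR test 5.34% of all tested genes were called higher and 4.48% lower. By the library ratios, 5 of the 12 had both higher beyond counting error and 5 had both lower. Of all tested genes 21.7% and 21.4% did. Ddit3 (CHOP), which induces Bbc3 and Bcl2l11 in other settings, had 7352 reads against 351 and 261 with hairpins A and B, and fell by 4.75 on the log2 scale (SE 0.23, edgeR quasi-likelihood adjusted p = 5.75e-12). Atf4, which acts with it, fell by 2.55 (SE 0.23), with 15641 reads in the control library against 3210 and 2742. Myc fell by 1.92 (SE 0.22), from 1157 reads to 400 and 285. The transcript of p53 (Trp53), the classical inducer of Bbc3 and Pmaip1, had a log2 fold change of -0.31 (SE 0.22, edgeR quasi-likelihood adjusted p = 0.463). That of Foxo3, an inducer of Bcl2l11, was -0.33 (SE 0.22, ratios of -0.19 with hairpin A and -0.49 with hairpin B). Trp53 and Foxo3 were named after their values were seen. Foxo1, in the same list, went the other way, at 0.37 (SE 0.23, ratios of 0.40 with hairpin A and 0.34 with hairpin B), and was not called. The 5 factors with both ratios higher were Stat3, Runx1, Jun, Nfkb1 and Foxo1. The part of the listed factors in the values of Bbc3 and Pmaip1 was not tested. Among 16 genes that act on the member proteins, such as ubiquitin ligases, 14-3-3 proteins and chaperone partners, 0 were called, with a median of 0.04. Both library ratios were higher beyond counting error for 4 of the 16 and lower for 2. The genes of highest CPM among the 16 were Tmbim6, an inhibitor of BAX-induced death in the reticulum (-0.03, SE 0.24), and Ywhaz, a 14-3-3 protein of the type that binds phosphorylated BAD (0.13, SE 0.25). For Ywhaz the log2 ratio was -0.03 (-0.07 to 0.02) with hairpin A and 0.27 (0.22 to 0.31) with hairpin B. At an unadjusted p under 0.05, 3143 of all tested genes passed.

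**Figure D5:**
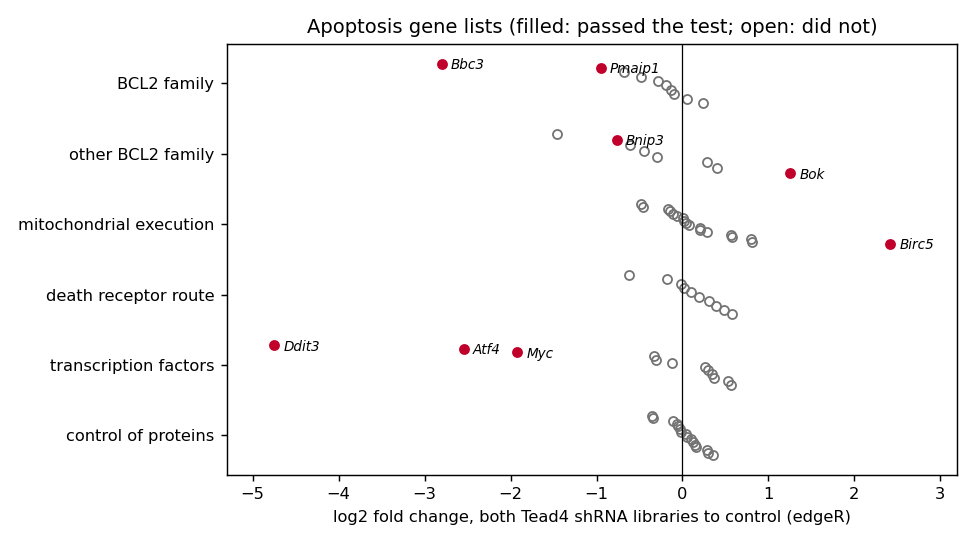
Log2 fold change (edgeR, both Tead4 shRNA libraries against the control) of the tested genes in 6 lists, 1 point per gene. Filled, named points passed the test: Bbc3 and Pmaip1 among the members, Bnip3 and Bok among other relatives, Birc5 among execution genes, and Ddit3, Atf4 and Myc among transcription factors.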

How the data were processed

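The authors' deposited table gave raw read counts per Ensembl gene for 3 libraries, and beside them normalized values, a score that equalled the raw count times 1 factor per library (1.00, 0.801 and 1.02 for control, hairpin A and hairpin B; 0 values differed from the rounded product). Per the submitters' processing notes, TopHat 1.0.12 and Cufflinks 0.8.2 are named beside the mm9 build, and DESeq is listed too, none with a stated role. The counting program was not given in the sources used here. Tests on the raw counts used edgeR 4.0.16 under R 4.3.3 (filterByExpr, TMM factors 0.979, 1.01 and 1.01, quasi-likelihood F test, legacy method). The code was tried on counts simulated with 1 dispersion for all 3 libraries and no differences between hairpins. That run therefore cannot check the use of a single control library or of different hairpins as repeats. The biological coefficient of variation was 16.4%. SE is the absolute log2 fold change over the square root of F. Ratios carry 95% Clopper-Pearson intervals. The p-values reflect the spread between the hairpin A and hairpin B libraries, moderated by the spread over all tested genes. The control library adds nothing to it. Differences between hairpins, between cultures and technical noise cannot be told apart in that spread. Alternatives used DESeq2 1.42.0, limma 3.58.1 (voom), other scalings and filters. Members and lists were chosen with earlier results of these data known. By rule, named genes were all members, called genes of each list up to 6, or else the 2 of highest CPM. Outside this rule, Apaf1, Cycs, Casp9, Trp53, Foxo3 and Foxo1 were named after their values were seen. So were other uncalled genes named for their 2 library ratios. Of the table's identifiers 18701 matched GENCODE M21.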

Additional observations from a re-analysis of the deposited data

How the results depend on the processing

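Bbc3 was called lower under 7 of 8 alternatives and Pmaip1 under 6. DESeq2 called 1 member lower (Bbc3) and 448 genes higher and 374 lower in all, against 773 and 649. The likelihood-ratio test with the dispersion over all 3 libraries as 1 group called 0 members and 0 genes higher or lower (540 genes at an unadjusted p under 0.05); there the log2 fold change was -2.36 for Tead4, -2.80 for Bbc3 and -0.94 for Pmaip1, each with an adjusted p of 0.885. That run changed the test and the dispersion together, and the cause of the calls lost there and with DESeq2 was not tested. Upper-quartile scaling and total counts each gave 1 member with both ratios higher (Bak1), and the 1.5-fold rule left 2 with both lower. Without 1 or the other Tead4 shRNA library no residual degree of freedom is left, so only ratios remain and no counts of calls: -2.86 to -1.99 for Tead4, -2.93 to -2.70 for Bbc3, -1.26 to -0.69 for Pmaip1, -0.94 to -0.46 for Bid, -0.12 to 0.21 for Bax, 1.16 to 1.35 for Bok, -0.99 to -0.57 for Bnip3, -0.48 to -0.13 for Bcl2l13, -0.01 to 0.37 for Tnfrsf12a, -0.03 to 0.27 for Ywhaz, -0.49 to -0.19 for Foxo3 and -2.61 to -2.48 for Atf4. Under the 8 alternatives with a test no named gene that had passed changed direction; those that did lay near 0 and were never called: Cflar (0.028 with upper-quartile scaling, 0.034 with total counts), Tmbim6 (0.011 and 0.017 with the same), Cycs (-0.010 with limma-voom) and Apaf1 (-0.00067 with DESeq2). No paired analysis was possible because the control group has 1 library. Bbc3, with 42 to 326 reads, has the widest counting intervals of the members.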
